A study of Homo sapiens with 4 samples.

Results

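The genes described here encode enzymes that write or erase chemical marks on histones and DNA, with a few core partners, measured in the human ovarian cancer line SKOV3. They were taken by symbol: the lysine demethylases (KDM genes), the lysine methyltransferases (KMT2, KMT5 and SETD genes, EHMT1, EHMT2 and DOT1L), the core of Polycomb repressive complex 2 (PRC2), the HDAC genes, the sirtuins, the DNA methyltransferases with UHRF1, and the TET genes. The rule found 65 of the 19475 gene symbols in the table. The RNA-seq data held 2 libraries of SKOV3 cells on tissue culture plate (TCP), placed at day 0 in the sample labels, and 2 libraries of SKOV3 tumor spheroids on polymer X, a polymer thin film, placed at day 8. The labels name no edited gene, silencing or inhibitor for these 4 libraries. In the study's methods SKOV3 cells were maintained in fetal bovine serum and spheroids were grown in serum replacement, while the labels give a single protocol with serum replacement for all 4 libraries. The groups thus differed in substrate, in time and perhaps in medium, whose parts cannot be told apart. The labels do not say that the 2 libraries of a group came from separate cultures, so p-values measure the spread between these libraries, which may be technical.

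DNA methylation is copied after replication by DNMT1, which UHRF1 brings to half-methylated sites, while DNMT3A and DNMT3B place new methyl groups and the TET enzymes oxidise them. On histones, methyl groups on lysines are added by methyltransferases and removed by the KDM demethylases, and acetyl groups are removed by the HDACs and the sirtuins. In dividing cells several of these enzymes follow the cell cycle, since newly made chromatin has to be marked again after each S phase.

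The values were FPKM, that is, tag counts divided by transcript length and library depth. The numbers of tags recovered from the smallest steps between values were 38403000 to 44917000 per library. For each symbol the transcript with the highest mean was used. The 11964 genes that reached 1 FPKM in 2 or more libraries were compared on log2(FPKM + 1) with limma, a linear model that shares its estimate of the spread across genes. A call required an adjusted p under 0.05 together with a log2 fold change, with its standard error (SE), of 1 or more in size, and "rose" and "fell" are kept for such genes. Between replicates the correlation of log2(FPKM + 1) over these genes was 0.998 for TCP and 0.997 for polymer X, while it was 0.854 to 0.862 between the groups. Of the epithelial genes, KRT8 was at 261.6 and 268.9 FPKM on TCP and at 145.8 and 143.0 on polymer X, and KRT18 at 122.8 and 120.7 and at 89.3 and 89.6. KRT7 was at 8.33 and 7.57 on TCP and at 4.57 and 4.04 on polymer X, EPCAM at 0.168 and 0.104 and at 1.39 and 1.33, and KRT19 was under 1 FPKM throughout. ERBB2, which is amplified in SKOV3, was at 198.2 and 205.5 on TCP and 913 and 860 on polymer X, and PAX8, a factor of the Müllerian lineage, at 48.8 and 50.5 on TCP and 102.1 and 107.7 on polymer X. MUC16 and WT1 were under 0.5 FPKM in every library. The 7 markers of blood, endothelial and liver cells summed to 0.045 and 0.094 FPKM on TCP and to 1.21 and 1.19 on polymer X, where PTPRC (0.468 and 0.530) and PECAM1 (0.573 and 0.458) made up most of the sum, and CD3E and MS4A1 were at 0 in all 4 libraries. The part of these differences in the results was not tested.

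Of the 65 genes, 62 were tested. Of these, 3 rose on polymer X (HDAC5, KDM6B and HDAC4) and 4 fell (UHRF1, DNMT1, KMT5A and EZH2). The called share was 4.84% higher and 6.45% lower, while of all tested genes 10.7% were called higher and 9.45% lower. At an adjusted p under 0.05 alone, 23 of the 62 were higher and 27 lower, which was 80.6% of them. Of all tested genes 37.4% were higher and 43.6% lower by this rule, together 81%. Of the 50 genes that passed this rule, 15 lost it under at least 1 alternative, among them TET3, KDM6A, HDAC1 and SIRT7. The 2 polymer X libraries lay above both TCP libraries for 24 of the 62 and below both for 32, together 90.3%. Over all tested genes these shares were 41.9% and 48.4%, together 90.4%. The median log2 fold change was -0.11 over the 62 genes, with a replicate SD of 0.020, and -0.06 over all tested genes. HDAC9, KDM7A and SIRT4 reached the minimum of 1 FPKM on polymer X alone, so they could enter the comparison through the group where they were high. As these are bulk samples, fewer cells that express a gene and less RNA of it per cell cannot be told apart.

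**Figure D1:**
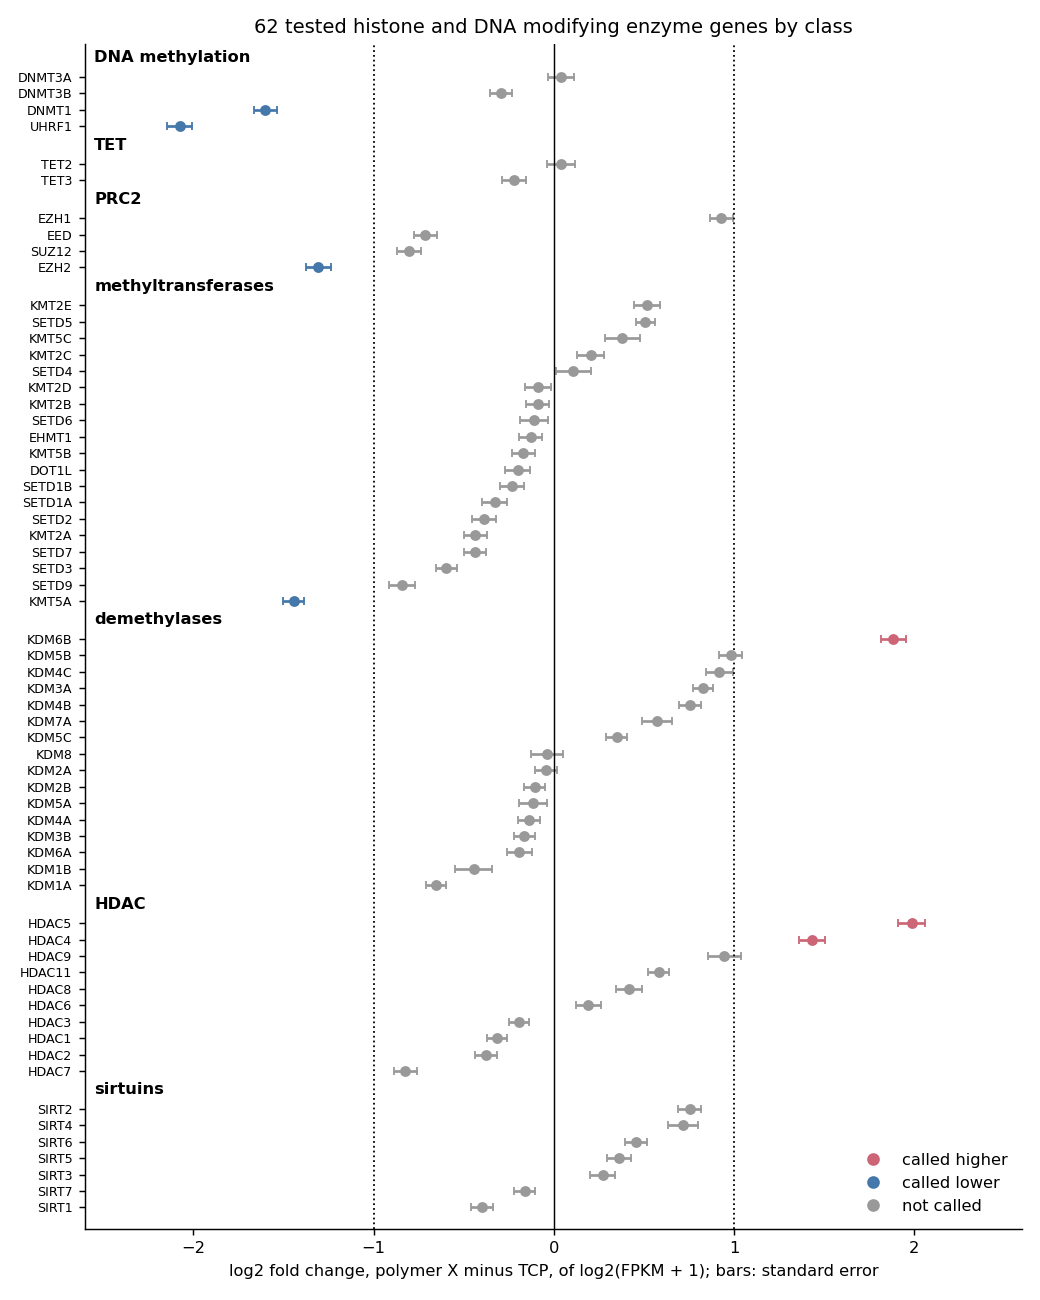
Log2 fold change (polymer X minus TCP, of log2(FPKM + 1)) of the 62 tested genes by enzyme class, with bars for the standard error (SE) from limma and dotted lines at the minimum of 1 in each direction. UHRF1, DNMT1, KMT5A and EZH2 lie left of the lower line, HDAC5, KDM6B and HDAC4 lie right of the upper line, and KDM5B at 0.98 and HDAC9 at 0.95 lie just inside it.

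The promoters of the 4 genes that fell and of KDM6B are shown. The plan named UHRF1, DNMT1, EZH2 and the 2 called genes with the largest rise, HDAC5 and KDM6B. KMT5A was added to show all the falls called, so this choice followed the calls. The windows are from RefSeq on GRCh38.p14, 250 bases before to 50 bases after the first start listed for each gene. They are read 5′ to 3′ on the strand of the gene. This start was not matched to the transcript whose level is given. A window can thus lie away from the start of the transcript that was measured. The table gave such windows for 61 of the 65 genes, and HDAC5 was not among them. Each was searched on both strands for an E2F-type word (TTNNCGC, each N being C or G) and for a HIF-type word (NCGTG, N being A or G). Capitals mark the E2F-type words in the first 4 and the HIF-type word in the last, and none of the marked words overlapped a word of another type. The windows are UHRF1 on chr19:4909251-4909550 (plus strand), DNMT1 on chr19:10194904-10195203 (minus strand), EZH2 on chr7:148884242-148884541 (minus strand), KMT5A on chr12:123383882-123384181 (plus strand) and KDM6B on chr17:7833967-7834266 (plus strand).
UHRF1: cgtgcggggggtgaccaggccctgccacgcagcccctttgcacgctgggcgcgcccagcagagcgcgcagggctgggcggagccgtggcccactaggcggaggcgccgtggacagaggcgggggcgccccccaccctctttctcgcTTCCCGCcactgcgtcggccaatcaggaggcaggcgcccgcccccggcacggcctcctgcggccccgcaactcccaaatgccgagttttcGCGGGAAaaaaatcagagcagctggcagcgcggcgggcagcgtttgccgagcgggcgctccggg
DNMT1: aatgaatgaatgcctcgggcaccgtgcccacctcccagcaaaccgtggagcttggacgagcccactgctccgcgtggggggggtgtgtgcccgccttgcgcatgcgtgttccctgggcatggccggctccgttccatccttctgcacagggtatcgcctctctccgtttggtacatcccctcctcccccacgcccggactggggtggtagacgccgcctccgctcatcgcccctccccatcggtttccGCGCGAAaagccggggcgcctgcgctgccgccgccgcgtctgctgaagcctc
EZH2: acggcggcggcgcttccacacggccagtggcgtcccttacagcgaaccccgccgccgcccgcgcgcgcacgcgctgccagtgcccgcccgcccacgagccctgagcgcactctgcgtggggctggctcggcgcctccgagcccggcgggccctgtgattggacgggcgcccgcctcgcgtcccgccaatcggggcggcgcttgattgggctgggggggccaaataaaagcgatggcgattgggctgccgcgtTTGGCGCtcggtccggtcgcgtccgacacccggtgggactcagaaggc
KMT5A: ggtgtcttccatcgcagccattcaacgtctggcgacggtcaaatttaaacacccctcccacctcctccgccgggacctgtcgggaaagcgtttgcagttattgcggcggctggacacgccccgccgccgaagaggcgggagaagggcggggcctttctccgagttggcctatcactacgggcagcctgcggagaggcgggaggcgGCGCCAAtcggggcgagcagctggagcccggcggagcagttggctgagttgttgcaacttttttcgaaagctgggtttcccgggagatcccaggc
KDM6B: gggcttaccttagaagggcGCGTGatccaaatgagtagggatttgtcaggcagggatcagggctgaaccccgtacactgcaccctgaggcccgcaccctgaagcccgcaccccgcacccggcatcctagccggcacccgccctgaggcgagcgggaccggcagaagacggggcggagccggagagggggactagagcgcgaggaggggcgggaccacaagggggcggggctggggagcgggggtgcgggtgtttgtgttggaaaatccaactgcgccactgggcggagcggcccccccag
The window of UHRF1 held 2 E2F-type words, which began 104 and 14 bases before the start, and those of DNMT1, EZH2 and KMT5A held 1 each. Such a word was present in 13.1% of 27305 windows of the same length over all genes and in 13 of the 61 windows of these enzymes. The 13 included EZH1, KMT2E, SIRT6 and HDAC6, whose levels were higher on polymer X, while the rest had negative log2 fold changes. A HIF-type word was present in 48.4% of all windows and in 43 of the 61. The KDM6B window held no E2F-type word and 1 HIF-type word. HIF-type words, not marked above, were also in the windows of UHRF1 (2), DNMT1 (3), EZH2 (2) and KMT5A (1). Another word searched, TTTGAA (CHR-type), was in none of these 5 windows and in 15.4% of all windows. The window of HDAC4, not shown, held 1 HIF-type and 1 CHR-type word and no E2F-type word. These are matches of letters, and binding was not measured.

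The enzymes that copy DNA methylation fell, while those that place new methyl groups did not. UHRF1 (NM_001290051, hg19 chromosome 19, 4910105 to 4962165), the reader of half-methylated CpG sites, was at 20.1 and 22.2 FPKM in the TCP libraries and at 4.20 and 4.30 in the polymer X libraries. The 2 groups were far apart, with means of 21.2 ± 1.53 and 4.25 ± 0.074 FPKM (SD, n = 2). Its log2 fold change was -2.08 (SE 0.069, limma adjusted p = 1.0e-08), the largest fall among the 62 genes. DNMT1 (NM_001318730, hg19 chromosome 19, 10244020 to 10305730), the maintenance methyltransferase, was at 43.6 and 45.3 FPKM on TCP and at 14.7 and 13.3 on polymer X. Its log2 fold change was -1.60 (SE 0.064, limma adjusted p = 2.7e-08). All 5 UHRF1 transcripts listed lay between -2.08 and -2.05 on this scale, and all 4 DNMT1 transcripts at -1.60.

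DNMT3B, which methylates new sites, was at 12.6 and 13.2 FPKM on TCP and at 10.1 and 10.7 on polymer X, which gave a log2 fold change of -0.29 (SE 0.063, limma adjusted p = 0.0020) that was under the minimum for a call. DNMT3A, of the same function, was at 3.16 and 3.19 FPKM on TCP and at 3.35 and 3.24 on polymer X, which gave a log2 fold change of 0.04 (SE 0.072, limma adjusted p = 0.619). DNMT1 gave 73.4% of the summed DNMT FPKM in each TCP library, but 52.3% and 48.9% in the polymer X libraries. The share of DNMT3B was 21.2% and 21.4% on TCP and 35.8% and 39.2% on polymer X, and the sum of the DNMT genes went from 59.4 and 61.7 to 28.1 and 27.2 FPKM. DNMT3B thus took a larger share at a level that was not higher.

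The TET genes showed little difference. TET3 was at 5.81 and 5.85 FPKM on TCP and at 4.78 and 4.94 on polymer X, with a log2 fold change of -0.22 (SE 0.067, limma adjusted p = 0.013). TET2 was at 2.27 and 2.49 on TCP and at 2.48 and 2.47 on polymer X, so that the groups overlapped (log2 fold change 0.04, SE 0.077, limma adjusted p = 0.644). TET1 lay between 0.707 and 0.875 FPKM in the 4 libraries, which is 260 to 376 tags, and was not tested.

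In PRC2, which methylates lysine 27 of histone H3 (H3K27), the catalytic subunits EZH2 and EZH1 went in opposite directions. EZH2 (NM_152998, hg19 chromosome 7, 148504464 to 148581441) was at 15.0 and 14.6 FPKM on TCP and at 5.71 and 5.10 on polymer X, which gave a log2 fold change of -1.31 (SE 0.070, limma adjusted p = 1.7e-07). EZH1, its paralog, which is known for its presence in cells that do not divide, was at 4.30 and 4.31 FPKM on TCP and at 9.12 and 9.09 on polymer X. The EZH1 libraries of a group were nearly equal and the groups lay far apart, but its log2 fold change of 0.93 (SE 0.065, limma adjusted p = 9.8e-07) was just under the minimum of 1. EZH1 passed that minimum with a pseudocount of 0.1 (1.06) and with its transcripts summed (1.04). Transcripts share tags, so their sum counts tags repeatedly and lessens the weight of the pseudocount of 1, as the smaller pseudocount does. These alternatives are thus not separate checks, here or for the genes below.

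EZH1 made up 22.3% and 22.8% of the EZH1 and EZH2 FPKM in the TCP libraries and 61.5% and 64.1% in the polymer X libraries. The ratio of EZH2 to EZH1 went from 3.49 and 3.39 to 0.626 and 0.561, so EZH2 was the more abundant of the pair on TCP and EZH1 on polymer X. The ratio itself was not tested. SUZ12, the scaffold of the complex, was at 25.9 and 25.5 FPKM on TCP and at 15.1 and 13.5 on polymer X (log2 fold change -0.80, SE 0.066, limma adjusted p = 2.9e-06). EED, which reads the finished H3K27 mark, was at 10.6 and 10.2 on TCP and at 5.89 and 6.02 on polymer X (log2 fold change -0.71, SE 0.064, limma adjusted p = 5.4e-06). Both were lower on polymer X in each library but were not called.

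On the erasing side of the same mark, KDM6B (NM_001348716, hg19 chromosome 17, 7743224 to 7758108), an H3K27 demethylase that many stimuli induce, rose. It was at 2.33 and 2.53 FPKM on TCP and at 11.5 and 11.8 on polymer X, a ratio of the means of 4.80. Its log2 fold change was 1.88 (SE 0.069, limma adjusted p = 1.7e-08), with 587 and 746 tags behind the TCP values. KDM6A, the X-linked enzyme of the same specificity, was at 7.46 and 7.35 FPKM on TCP and at 6.64 and 6.09 on polymer X (log2 fold change -0.19, SE 0.069, limma adjusted p = 0.028). The ratio of KDM6B to KDM6A went from 0.312 and 0.344 on TCP to 1.74 and 1.93 on polymer X, and their sum from 9.79 and 9.88 to 18.2 and 17.9 FPKM. KDM6A was the more abundant of these genes on TCP, and KDM6B on polymer X.

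**Figure D2:**
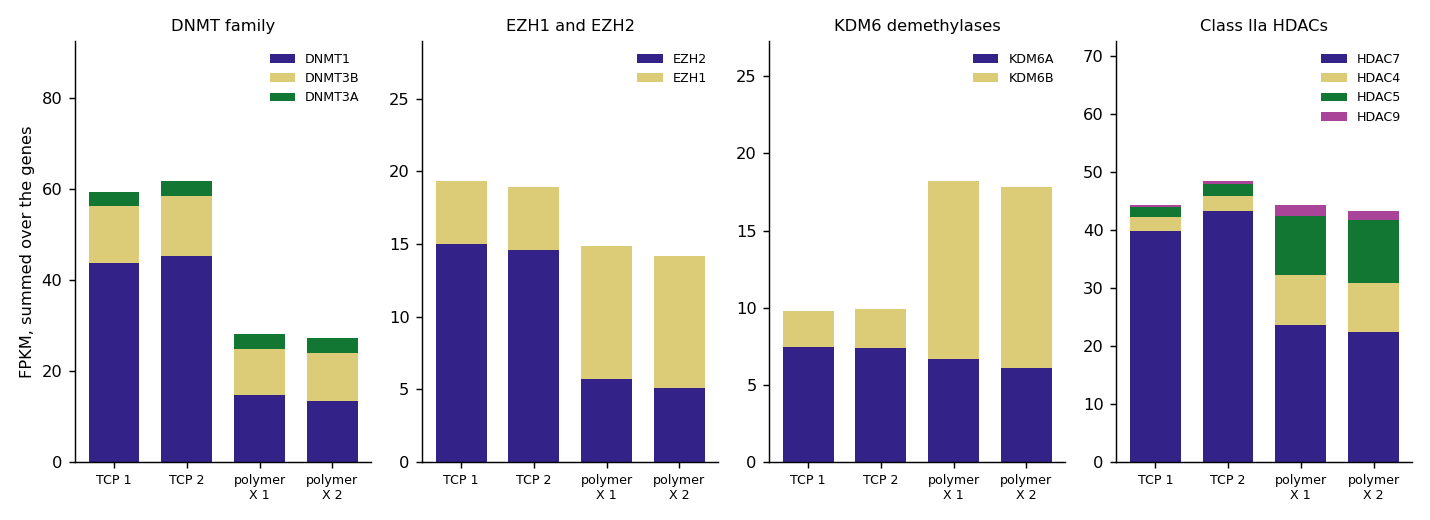
Stacked FPKM of 4 groups of related genes in each library. Between TCP and polymer X the DNMT1 part of the DNMT sum shrinks, EZH1 replaces EZH2 as the larger part, KDM6B becomes larger than KDM6A, and HDAC4, HDAC5 and HDAC9 take a larger part of a class IIa sum that stays between 43.3 and 48.4 FPKM.

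In the methyltransferase class, KMT5A was the 1 gene called of 19 tested, or 5.26%, against 20.2% of all tested genes called in either direction. The class was taken by symbol, and not all of its members act on histones. The 19 tested genes had a median log2 fold change of -0.17. At the adjusted p alone, 4 were higher, 10 lower and 5 neither, while of all tested genes 37.4% were higher and 43.6% lower. KMT5A (NM_001324505, hg19 chromosome 12, 123868663 to 123893900) places the first methyl group on lysine 20 of histone H4 (H4K20) and is known for its tie to the cell cycle. It was at 21.8 and 22.0 FPKM on TCP and at 7.30 and 7.54 on polymer X, which gave a log2 fold change of -1.44 (SE 0.059, limma adjusted p = 3.2e-08). SETD9 (log2 fold change -0.84) and SETD3 (-0.60), an actin histidine methyltransferase, were the next lowest. SETD9 passed the minimum with a pseudocount of 0.1 (-1.01) and with its transcripts summed (-1.03), but its row NM_001171990 was at -0.50. KMT2E, SETD5 and KMT5C had the highest values. KMT2E was at 5.09 and 5.35 FPKM on TCP and at 7.58 and 8.25 on polymer X, which gave a log2 fold change of 0.52, and SETD5 was at 27.1 and 27.6 on TCP and at 38.5 and 40.2 on polymer X, which gave a log2 fold change of 0.51. For KMT5C, which with KMT5B adds further methyl groups to H4K20, the log2 fold change was 0.38 (SE 0.098, limma adjusted p = 0.0054). Its adjusted p was 0.062 under quantile normalization (0.22), 0.110 with no filter and 0.055 without polymer X replicate 1.

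The remaining members of this class are given to account for all of them, and, as elsewhere for genes outside the naming rule, were chosen after their values were seen. The enzymes of lysine 4 of histone H3 (H3K4), namely KMT2A to KMT2D, SETD1A and SETD1B, had log2 fold changes from -0.43 (KMT2A) to 0.20 (KMT2C, which was -0.03 under quantile normalization). SETD2, which trimethylates lysine 36, was at -0.39, SETD7 at -0.44 with other rows down to -0.99, and DOT1L, the lysine 79 enzyme, at -0.20. EHMT1, a lysine 9 enzyme, was at -0.13 (limma adjusted p = 0.093) and at 0.03 under quantile normalization. Its value depended on the transcript, since 4 of its 6 rows lay between -0.44 and -0.38, among them NM_001145527, at 17.7 and 18.9 FPKM on TCP and 13.5 and 13.6 on polymer X. SETD6 was at -0.11 and SETD4 at 0.11, and neither passed an adjusted p of 0.05. DOT1L and SETD6 overlap PLEKHJ1 and CNOT1 on the opposite strand, both lower on polymer X, and the counting did not use strand, so these genes can share tags. EHMT2 had at most 4 tags in any library. Its rows are placed 7 times on chromosome 6 and its alternative haplotypes in hg19, and of 144 symbols placed at least 6 times there 100 had no library above 0.1 FPKM, so no level of EHMT2 is read from these values.

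For KMT5B the direction depended on the transcript. The row with the highest mean (NM_016028, 2681 bases) was at 7.95 and 7.86 FPKM on TCP and at 7.02 and 6.82 on polymer X, which gave a log2 fold change of -0.17. The longer row NM_017635, of 5754 bases, which shares much of its sequence but runs further at its 3′ end, was at 5.25 and 4.76 on TCP and at 7.15 and 6.80 on polymer X, which gave a log2 fold change of 0.41. The other long rows were at 0.41 and 0.42 and the other short row at -0.14. In each of the 5 rows, which share tags, the groups did not overlap, as held for 90.4% of all tested genes. With the transcripts summed, KMT5B was at 0.18. The SETD4 rows that run further at the 3′ end were at 0.38 and 0.37, against 0.11 and 0.10 for the others. HDAC8 showed a split of the same kind. Its rows that reach the far 3′ end, NM_018486 and NM_001166418, had log2 fold changes of 0.42 and 0.48, while the 4 rows that end earlier lay between -0.02 and 0.06. Whether this reflects other transcript ends was not tested, since the deposited values do not place tags within a transcript.

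**Figure D3:**
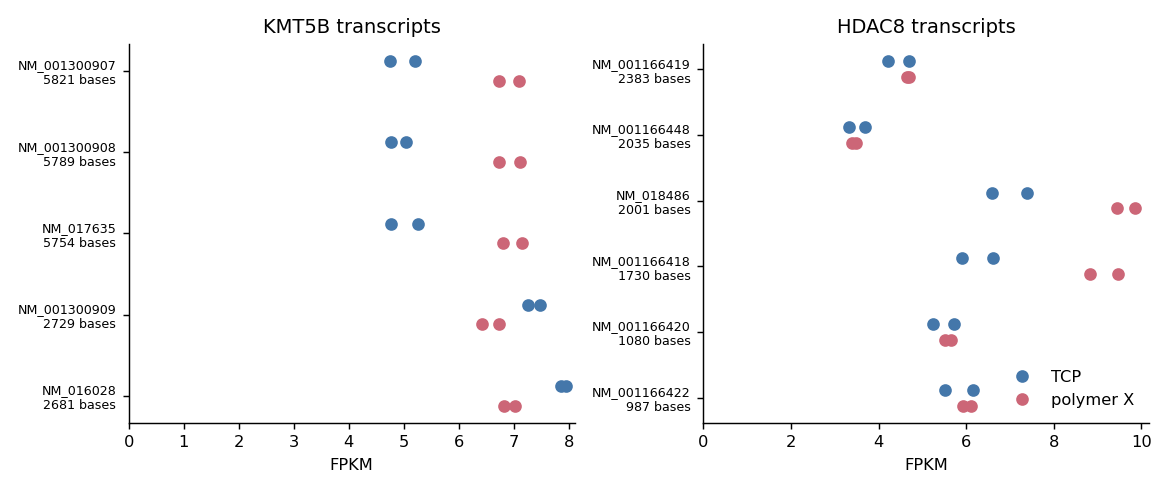
FPKM of every listed transcript of KMT5B and HDAC8 in the TCP and polymer X libraries, with transcripts ordered by length. The 3 long KMT5B rows are higher on polymer X and the 2 short ones lower, and of the HDAC8 rows NM_018486 and NM_001166418 have groups that stand well apart.

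Of the 16 demethylases, KDM6B was the 1 gene called, or 6.25%, against 20.2% of all tested genes called in either direction. The median log2 fold change was -0.04 (0.060 under quantile normalization), close to the -0.06 of all tested genes. The spread around this median was wide. KDM5B, which removes methyl groups from H3K4, was at 5.11 and 5.34 FPKM on TCP and at 11.1 and 11.5 on polymer X, a ratio of the means of 2.16 (log2 fold change 0.98, SE 0.065, limma adjusted p = 7.1e-07). KDM4C, which acts on lysines 9 and 36 of H3, was at 1.70 and 1.61 FPKM on TCP and at 3.96 and 4.07 on polymer X, a ratio of 2.43 (log2 fold change 0.92, limma adjusted p = 2.7e-06). KDM4C and KDM5B both passed the minimum with a pseudocount of 0.1 (1.23 and 1.10) and with their transcripts summed (1.17 and 1.07). KDM5B also passed it with scaling to a common median (1.02), without TCP replicate 2 (1.01) and without polymer X replicate 1 (1.00). KDM4C was at 0.70 under quantile normalization, and its row NM_001304341 was at 0.46.

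The demethylases of lysine 9 of H3 (H3K9) did not move as a group. KDM3A, known as a target of the hypoxia-inducible factors, was at 16.5 and 16.4 FPKM on TCP and at 29.1 and 30.8 on polymer X (log2 fold change 0.83). KDM4B, known likewise, was at 10.7 and 11.05 on TCP and at 18.5 and 19.6 on polymer X (0.75), and KDM7A at 0.916 and 0.827 on TCP and at 1.68 and 1.89 on polymer X (0.57, but 0.19 with an adjusted p from limma of 0.078 under quantile normalization). Their paralogs KDM3B and KDM4A lay at -0.16 and -0.14, and only for KDM3B of the pair was the adjusted p from limma under 0.05, which it lost under quantile normalization (-0.013). KDM3A, KDM4B and KDM7A were not called, and KDM3A was called under quantile normalization. Of the H3K4 demethylases, KDM1A (LSD1), the most abundant of all 16, was at 73.2 and 73.9 FPKM on TCP and at 47.5 and 45.2 on polymer X (log2 fold change -0.66, SE 0.055, limma adjusted p = 3.3e-06). KDM1A was at -0.33 under quantile normalization. KDM1B was at -0.44 (SE 0.102), but at -0.29 without polymer X replicate 2, and its adjusted p from limma was 0.103 with no filter. KDM5A was at -0.12 and the X-linked KDM5C at 0.35 (0.61 under quantile normalization). The H3K36 demethylases KDM2A and KDM2B were at -0.04 and -0.10 and KDM8 at -0.04, and for none of these 3 or of KDM5A was the adjusted p from limma under 0.05. Under quantile normalization KDM8 (-0.36, limma adjusted p = 0.0082) and KDM5A (-0.24, limma adjusted p = 0.030) passed it.

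The HDAC genes showed the sharpest contrast within a class, among the class IIa enzymes. These bind transcription factors such as MEF2 and move between nucleus and cytoplasm on signals. HDAC5 (NM_005474, hg19 chromosome 17, 42154121 to 42201014) was at 1.80 and 2.05 FPKM on TCP and at 10.2 and 10.9 on polymer X. This 5.49-fold ratio of the means was the highest of the 62 genes, with a log2 fold change of 1.98 (SE 0.077, limma adjusted p = 2.3e-08) and 366 and 487 tags behind the TCP values. HDAC4 (NM_006037, hg19 chromosome 2, 239969864 to 240322643) was at 2.41 and 2.61 FPKM on TCP and at 8.58 and 8.36 on polymer X, a 3.37-fold ratio and a log2 fold change of 1.43 (SE 0.071, limma adjusted p = 1.1e-07). HDAC9 was at 0.369 and 0.435 FPKM on TCP and at 1.86 and 1.55 on polymer X. Its ratio of 4.24 rests on 58 and 80 tags on TCP, and its log2 fold change of 0.95 (SE 0.091) was not called. The pseudocount of 1 understates changes at such low levels. It was called with a pseudocount of 0.1 (1.84), with its 39 transcripts summed (2.11) and without polymer X replicate 2 (1.03), while under quantile normalization the value was 0.45.

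HDAC7, the remaining class IIa gene, went the other way. It was at 39.8 and 43.3 FPKM on TCP and at 23.6 and 22.4 on polymer X, which gave a log2 fold change of -0.82 (SE 0.062, limma adjusted p = 1.7e-06) that was not called. HDAC7 gave 89.7% and 89.5% of the class IIa FPKM on TCP and 53.4% and 51.9% on polymer X. The shares of HDAC5 went from 4.06% and 4.23% to 23.1% and 25.3%, and those of HDAC4 from 5.43% and 5.39% to 19.4% and 19.3%. The sum over the class was 44.4 and 48.4 FPKM on TCP and 44.3 and 43.3 on polymer X, so its makeup differed more than its total.

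**Figure D4:**
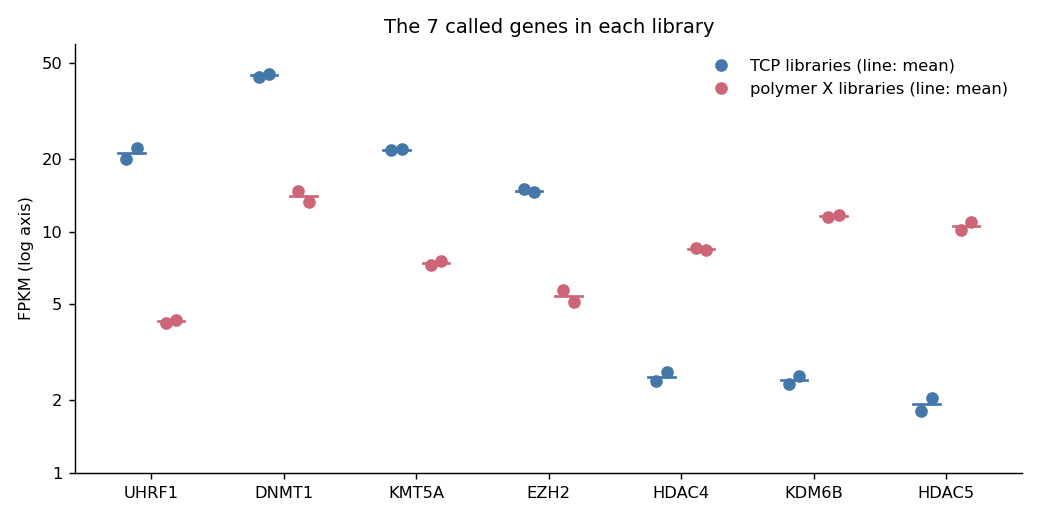
FPKM (log axis) of the 7 called genes in each of the 4 libraries, with a line at the mean of each group. For every gene the replicates lie close together and the groups do not overlap, as held for 90.4% of all tested genes. UHRF1 shows the largest fall and HDAC5 the largest rise.

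The class I enzymes are HDAC1, HDAC2 and HDAC3, found in the nuclear corepressor complexes, and HDAC8. They had the highest summed FPKM of the HDAC classes, largely through HDAC1, and none of them was called. HDAC1 was at 117.7 and 122.8 FPKM on TCP and at 95.5 and 97.5 on polymer X (log2 fold change -0.32, SE 0.056, but 0.025 under quantile normalization), HDAC2 at 20.4 and 19.96 on TCP and at 16.0 and 14.7 on polymer X (-0.38, SE 0.063, and -0.20 under quantile normalization). HDAC3 was at -0.19, and at 0.060 under quantile normalization. HDAC8 was at 0.42. Class I gave 71.7% and 71.6% of all HDAC FPKM on TCP and 65.7% in each polymer X library. HDAC11, the class IV enzyme, was at 14.9 and 14.2 FPKM on TCP and at 22.2 and 22.4 on polymer X (0.58), and HDAC6, a tubulin deacetylase, was at 0.19. HDAC10 was under 1 FPKM in all 4 libraries, at 0.427 and 0.340 on TCP and at 0.568 and 0.888 on polymer X (41 to 97 tags), and was not tested.

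None of the 7 sirtuins, the deacylases that use NAD, was called, while 20.2% of all tested genes were called in either direction. At an adjusted p of 0.05 alone, which 81% of all tested genes passed, 5 were higher and 2 lower on polymer X, although SIRT7 lost this under 7 alternatives and SIRT3 (0.062) without TCP replicate 1. SIRT2, which is mainly cytosolic, was at 6.53 and 6.10 FPKM on TCP and at 11.4 and 11.3 on polymer X (log2 fold change 0.75, SE 0.065, limma adjusted p = 4.1e-06). It overlaps NFKBIB on the opposite strand, which was at 12.9 and 12.1 FPKM on TCP and at 6.21 and 4.16 on polymer X. SIRT4, a mitochondrial enzyme, was at 0.541 and 0.555 FPKM on TCP and at 1.54 and 1.55 on polymer X (0.72), from 25 and 30 tags to 74 and 76, and was called with a pseudocount of 0.1 (1.34), while under quantile normalization the value was 0.24 (limma adjusted p = 0.027). The other mitochondrial members, SIRT3 and SIRT5, were at 0.27 and 0.36. SIRT3 overlaps RIC8A on the opposite strand, which was at 52.8 and 54.8 FPKM on TCP and at 27.6 and 27.4 on polymer X. Among the nuclear members, SIRT6 was at 0.46 (10.5 and 10.2 FPKM on TCP, 14.2 and 15.0 on polymer X), SIRT1 at -0.40 (10.98 and 11.1 on TCP, 8.14 and 8.12 on polymer X) and the nucleolar SIRT7 at -0.16, which was 0.060 under quantile normalization.

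The partners of these enzymes were read from lists of related genes. Of the 12 acetyltransferases, which oppose the deacetylases, 1 was called: HAT1, which acetylates new histone H4 before deposition, fell from 53.2 ± 2.05 to 18.2 ± 1.30 FPKM (SD, n = 2), a log2 fold change of -1.49. Of the 20 other histone methyltransferases tested, 3 fell, namely SUV39H1 (-1.73), which trimethylates H3K9, NSD2 (-1.54), an H3K36 enzyme, and PRMT5 (-1.24), an arginine methyltransferase, and 0 rose. Among 21 tested partners of Polycomb complexes, the PRC2 accessory protein PHF19 (-1.91) and PCGF6 (-1.04) fell, and CBX7, a Polycomb reader, rose from 1.83 and 1.81 FPKM to 5.88 and 6.11 (1.31). Of the 11 tested partners of DNA methylation, HELLS (-1.75), a remodeler that DNA methylation requires, and CHAF1A (-1.66) and CHAF1B (-1.46), subunits of the chromatin assembly factor that follows the replication fork, fell. None of the 18 deacetylase complex partners, the 13 COMPASS and DOT1L partners or the 7 tested other JmjC proteins was called. The background for these counts is 20.2% called in either direction over all tested genes, and the called shares were 8.33% for the acetyltransferases, 15% for the methyltransferases, 14.3% for the Polycomb partners and 27.3% for the DNA methylation partners.

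In the list of enzymes that supply cofactors, 4 of 18 genes fell and 1 rose, together 27.8%, against 20.2% of all tested genes. AHCY, which clears the product that inhibits methyltransferases, fell from 81.2 ± 0.147 to 32.0 ± 1.82 FPKM (SD, n = 2), a log2 fold change of -1.32. The folate enzymes MTHFD1 (-1.75) and MTHFD2 (-1.25) and NNMT (-1.01), which uses the methyl donor, also fell. D2HGDH, which removes D-2-hydroxyglutarate, an inhibitor of demethylases and TET enzymes, rose from 11.7 and 11.3 FPKM to 27.2 and 27.0 (1.17). MTHFD2, NNMT, PRMT5 and CHAF1B, and PCNA below, fall outside the naming rule and were named after their values were seen.

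Markers of dividing cells were also lower on polymer X. All 10 genes of a proliferation list fell, with a median log2 fold change of -1.94 and a range from -2.72 (CCNB1) to -1.29 (PCNA), and MKI67 went from 42.6 and 45.9 FPKM to 5.97 and 6.91. UHRF1 (-2.08), DNMT1 (-1.60), KMT5A (-1.44) and EZH2 (-1.31) lay within that range. These genes were chosen by a fall of 1 or more, so this place was largely set by the call. SUZ12 (-0.80) and EED (-0.71), which were not called, lay outside the range. Of 10 hypoxia-inducible genes, 8 rose and 0 fell, with a median of 2.08. Over all tested genes 10.7% were called higher and 9.45% lower, which is the background for both lists. CA9 was at 5.14 and NDRG1 at 4.24, against 0.83 for KDM3A and 0.75 for KDM4B. The part of either list in the levels of the enzymes was not tested.

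**Figure D5:**
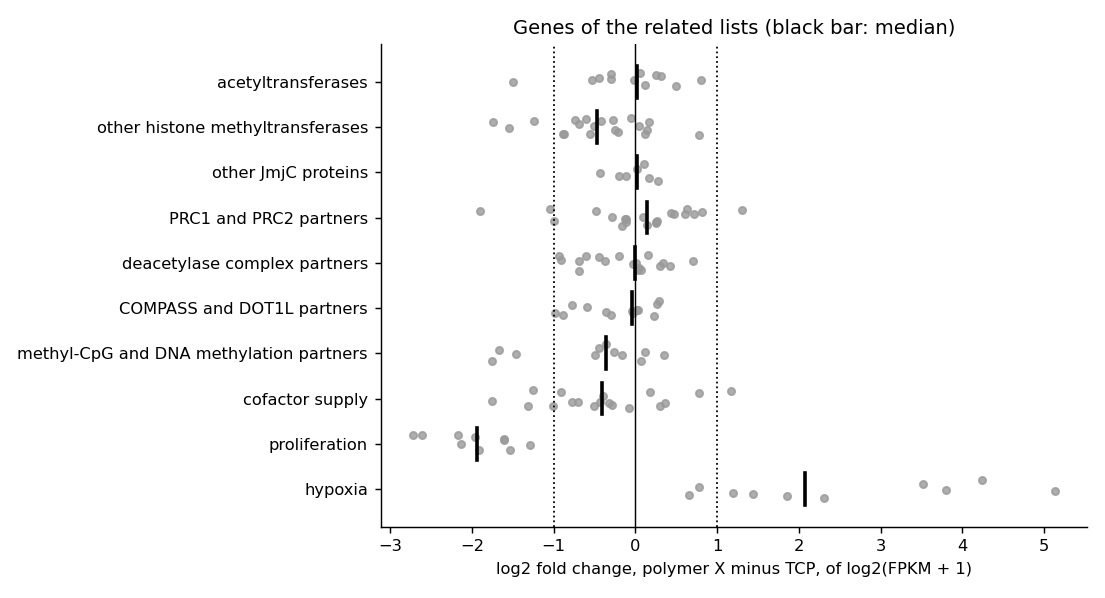
Log2 fold change (polymer X minus TCP, of log2(FPKM + 1)) of each tested gene of the 10 related lists, with a black bar at the median of a list and dotted lines at the minimum for a call. The proliferation genes lie wholly left of -1, the hypoxia genes lie right of 0, and the medians of the 8 lists of partners and cofactors lie between -0.46 and 0.15.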

How the data were processed

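RNA-seq of SKOV3 cells on TCP (2 libraries) and of SKOV3 spheroids on polymer X (2 libraries) was read from 1 table. Its deposited values are FPKM, which the authors computed with HOMER (hg19) from tags on the exons of each of 50078 RefSeq transcripts, counted on both strands, with 3 decimals. The submitters' processing notes also name STAR 2.4.0 and DESeq. The HOMER version and read trimming are not given in the sources used here. Transcripts of a gene share tags, and the row with the highest mean stood for each symbol, of which 10500 of 19475 had more than 1 row. Multiplied by transcript length, low values of rows placed once fell within 0.1 of a whole number of tags in each library (100% of the values used), which gave the depth. If mates were counted singly, counting errors from tags are too small.

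limma 3.58.1 in R 4.3.3 was fitted with a trend of variance on level and without the replicate number as a block. Benjamini-Hochberg adjustment was over all 11964 genes. The fit was also run on simulated tags with a fixed spread and few changed genes. That setting is unlike these data, so no support is drawn from it. The members, classes and lists were chosen with earlier results of these data known. The text names every called member, the 3 highest and 3 lowest of each class, all PRC2, DNMT, UHRF1 and TET genes, and 2 called genes in each direction of each related list. The alternatives were a pseudocount of 0.1, the filter on low values dropped or raised to a mean of 5 FPKM, quantile normalization and median scaling, the replicate block, summed transcripts, other fold change minimums and each library left out. Plots were drawn with matplotlib 3.10.9.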

Additional observations from a re-analysis of the deposited data

How the results depend on the processing

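The 7 genes called were called under every alternative that kept the fold change minimum of 1. The number called higher was 8 with the pseudocount at 0.1 and 7 with summed transcripts, against 3, and over all tested genes the share called higher went from 10.7% to 15.4% and 13.2%, against 12.9% and 11.1% of the members. With a fold change minimum of 0.5 or none, 15 or 23 were higher. The number called lower, 4, became 10 or 27 with these minimums. Over all tested genes, the percentages at the minimum of 0.5 were 23.6 higher and 26.7 lower. Leaving out any single library, 3 to 4 were higher and 4 lower; the lone library of a group is then assumed to vary like the others.

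Medians moved by more than the replicate SD as follows. For all 62 genes (-0.11) the median was -0.16 with the filter at a mean of 5 FPKM, -0.021 under quantile normalization and -0.070 under median scaling, where the medians of all genes were -0.20, -0.050 and -0.021, so the members lay above all genes in the first 2 of these and below in the main comparison (-0.11 against -0.058). For DNA methylation (-0.95) it was -0.99 with a pseudocount of 0.1, -1.60 with the filter at 5, where DNMT3A is not tested, -0.79 under quantile normalization and -0.91 under median scaling. For TET (-0.090) it was 0.018 with no filter, where TET1 enters, -0.22 with the filter at 5, -0.25 under quantile normalization, -0.057 under median scaling and -0.12 with summed transcripts. For PRC2 (-0.76) it was -0.82 with a pseudocount of 0.1, -0.65 under quantile normalization, -0.72 under median scaling and -0.80 with summed transcripts. For methyltransferases (-0.17) it was -0.13 under both scalings and -0.20 with summed transcripts. For demethylases (-0.040) it was 0.060 under quantile normalization. For HDAC (0.30) it was 0.19 with the filter at 5, 0.37 under quantile normalization and 0.24 with summed transcripts. For sirtuins (0.36) it was 0.43 with a pseudocount of 0.1, 0.27 with the filter at 5, 0.26 under quantile normalization and 0.40 under median scaling. Where no construction is named, the cause was not tested. Over the 4 fits without a library, the median ranged from -0.12 to -0.083 for all 62 genes and from -0.091 to 0.018 for demethylases, which changed sign without polymer X replicate 1 (0.018).

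Under quantile normalization 9 of the 62 genes changed sign, among them DNMT3A (-0.15), TET2 (-0.21), HDAC1 (0.025) and SIRT7 (0.060), and another 14 moved by over 1.5 times. TET2 also changed sign with summed transcripts (-0.017) and without TCP replicate 1 (-0.0060), and its range without a library reached 0.086. Libraries with the same number deviated together at a correlation of 0.0927 over the genes, so no pairing was assumed. With 2 libraries per group both pairs give this same value, so it is 1 observation. With the replicate block 3 genes were called higher and 4 lower, and it changed no call. Depth limits SIRT4, HDAC10 and HDAC9, with under 100 tags in a TCP library.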
